A study of Mus musculus with 30 samples.

Results

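The genes described here are Adgrg1, Mcam and Alpl, which encode a receptor, an adhesion molecule and an enzyme of the cell surface. They were followed in AML12 cells, a mouse hepatocyte line, after loss of the forkhead transcription factors FoxK1 and FoxK2. They are 3 of the 49089 genes in the count files and 3 of the 11368 that passed the filter on low counts, and they were chosen by a measured change: the study named them as raised by FoxK loss. The study describes that change in cells at basal, so the selection was taken to rest on the expression values of the 16 basal samples. This is an assumption: the study does not state that insulin-treated samples had no part in it, and its heatmap caption speaks of all groups. Because of the assumed selection, their basal differences and the insulin effects that start from basal samples are given as descriptions without a test. Tests were made only between groups of the 14 insulin-treated samples. The filter on low counts and the estimate of spread used all 30 samples, basal ones included. The differences tested are therefore independent of the selection only if the assumption holds, and their p-values are not wholly so even then.

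The study asked how FoxK1 and FoxK2 shape gene expression and its response to insulin. Besides the cell data, it reported higher Mcam and Adgrg1 mRNA in mouse liver after deletion of FoxK1. RNA-seq was performed on 30 samples in 8 groups: cells transfected with control siRNA (Control) or with siRNA against FoxK1 (FoxK1 KD), FoxK2 (FoxK2 KD) or both (DKD), each serum-starved and then left at basal or given 100 nM insulin for 6 h. Each group held 4 samples, except Control and DKD after insulin with 3 each. AML12 cells come from hepatocytes of a mouse that carries a TGF-alpha transgene, so all groups share this one immortalised line, and the knockdowns are partial and transient. The labels do not say whether samples are separate cultures, so p-values measure only the spread between these samples, which may be technical.

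Adgrg1 is an adhesion G protein-coupled receptor that binds collagen and transglutaminase in the matrix and signals through G proteins. Mcam is an adhesion molecule of the immunoglobulin family, best known from endothelial cells and pericytes, that binds laminins and galectins. Alpl is tissue-nonspecific alkaline phosphatase, a GPI-anchored ectoenzyme of liver, bone and kidney that splits pyrophosphate, pyridoxal phosphate and other phosphate esters outside the cell.

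On GRCm38, Adgrg1 (ENSMUSG00000031785.16) lies at chr8:94974751-95014217 on the plus strand, Mcam (ENSMUSG00000032135.14) at chr9:44134469-44142727 on the plus strand and Alpl (ENSMUSG00000028766.10) at chr4:137741733-137796384 on the minus strand. The region before an annotated start is shown for each gene, because the data compare cells with less of 2 DNA-binding factors and because Adgrg1 and Alpl moved together across groups. The sequences are from RefSeq (GRCm38.p6), run 5′ to 3′ on the gene's strand and stop where an annotated exon of the gene begins, which leaves 61 bases for Mcam at chr9:44134408-44134468, 222 for Adgrg1 at chr8:94984149-94984370 and 250 for Alpl at chr4:137796385-137796634. The Adgrg1 stretch lies inside the gene, before one of its downstream starts. Capitals mark the GC box GGGCGG.
Adgrg1: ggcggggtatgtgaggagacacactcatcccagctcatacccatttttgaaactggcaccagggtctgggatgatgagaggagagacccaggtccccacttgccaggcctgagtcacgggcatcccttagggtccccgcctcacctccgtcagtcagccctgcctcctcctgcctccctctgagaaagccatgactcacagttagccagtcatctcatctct
Mcam: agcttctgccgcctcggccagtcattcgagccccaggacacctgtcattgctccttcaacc
Alpl: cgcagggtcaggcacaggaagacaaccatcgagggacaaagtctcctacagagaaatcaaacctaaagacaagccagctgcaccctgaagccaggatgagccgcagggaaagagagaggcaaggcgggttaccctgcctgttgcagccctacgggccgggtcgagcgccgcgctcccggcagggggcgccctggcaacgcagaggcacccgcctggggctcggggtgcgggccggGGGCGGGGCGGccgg

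RefSeq gives the 3 genes 5 such windows of 250 bases, 2 for Adgrg1, 1 for Mcam and 2 for Alpl, and these whole windows were searched on both strands. The forkhead motifs GTAAACA and ATAAACA were in 0 of the 5 windows and in 3.17% and 4.16% of the 32851 windows of all genes. Their shared core AAACA, which lies inside both, was likewise in 0 of 5, against 46.4% of all windows. The 5 windows come from only 3 genes and had a GC content of 56.0% to 73.6%, beside a median of 52.4% over all windows. Its part in the absence of these motifs was not tested. The FoxK motif given by the study allows T as well as C before the last A, and the form with T was not searched. The GC box GGGCGG was in 2 of 5 windows, against 32.7% of all. The Mcam window held 5 copies, none in the 61 bases shown, and the Alpl window shown held 2 that overlap. In CpG dinucleotides the windows of 1 gene could differ: the Alpl window shown held 20 and its other window 4, both Adgrg1 windows held 4 each, the Mcam window held 25, and the median over all windows was 6.

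Libraries held 2141460 to 5668270 counts. Levels are given as CPM, counts scaled per 1000000 counts of the library, after TMM scaling of library size. The siRNA targets fell where the labels say so: after insulin, Foxk1 ranged from 28.0 to 35.3 CPM in FoxK1 KD and from 30.5 to 40.9 in DKD, against 49.0 to 57.8 in Control, and Foxk2 ranged from 62.1 to 68.9 in FoxK2 KD and from 59.0 to 67.6 in DKD, against 156.9 to 168.2 in Control. Relative to Control, mean Foxk1 after insulin was 58.2% (FoxK1 KD) and 64.6% (DKD), and mean Foxk2 was 40.4% (FoxK2 KD) and 39.5% (DKD). At basal, mean Foxk1 was 45.2% (FoxK1 KD) and 57.1% (DKD) of Control, and mean Foxk2 33.7% (FoxK2 KD) and 35.8% (DKD). In Control itself, mean Foxk1 was 81.4 CPM at basal and 53.0 CPM after insulin. The other factor was not untouched: mean Foxk2 in FoxK1 KD was 85.5% of Control after insulin (called, edgeR adjusted p = 0.180) and 83.45% at basal. Mean Foxk1 in FoxK2 KD was 98.8% after insulin (not called, edgeR adjusted p = 0.998) and 85.8% at basal. Of 9 hepatocyte markers, 7 passed the filter on low counts, and their summed level with the other 2 was 2122 to 2921 CPM. Hnf4a and Apob averaged 134.4 and 588.4 CPM, while Alb averaged only 10.4 CPM and Apoa1 and Fgb lay under 1 CPM on average. Of 5 cholangiocyte markers, 4 passed, Spp1 and Krt19 highest among them at 1391 and 487.6 CPM, with Epcam at 0. None of 4 endothelial, 6 mural and stellate, or 4 immune cell markers passed. The libraries also fell into 2 sets: 52 genes were higher and 83 lower in every DKD or insulin-treated sample (18) than in every Control, FoxK1 KD or FoxK2 KD basal sample (12). None of the 3 genes was among them. Comparisons among insulin-treated samples, and DKD with against without insulin, lie within the 18. DKD against Control at basal and the insulin effects in the other genotypes cross the 2 sets, and there the split and the condition cannot be told apart.

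Adgrg1 was the most abundant of the 3, with a mean of 72.2 CPM over the 30 samples and 7871 counts in all. Alpl averaged 18.5 CPM with 2006 counts, and Mcam 3.57 CPM with 380 counts. These means were above those of 67.5%, 31.1% and 7.79% of tested genes, respectively. Per kilobase of the longest transcript, basal Control cells held 18.4 CPM per kb of Adgrg1, 6.43 of Alpl and 0.44 of Mcam. All 30 samples carried Adgrg1 and Alpl over the filter's limit of 2.73 CPM, but 17 of 30 did so for Mcam, including all 8 FoxK1 KD samples and none of the 7 Control samples. Mcam was therefore kept only through the knockdown groups, where it was high.

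**Figure D1:**
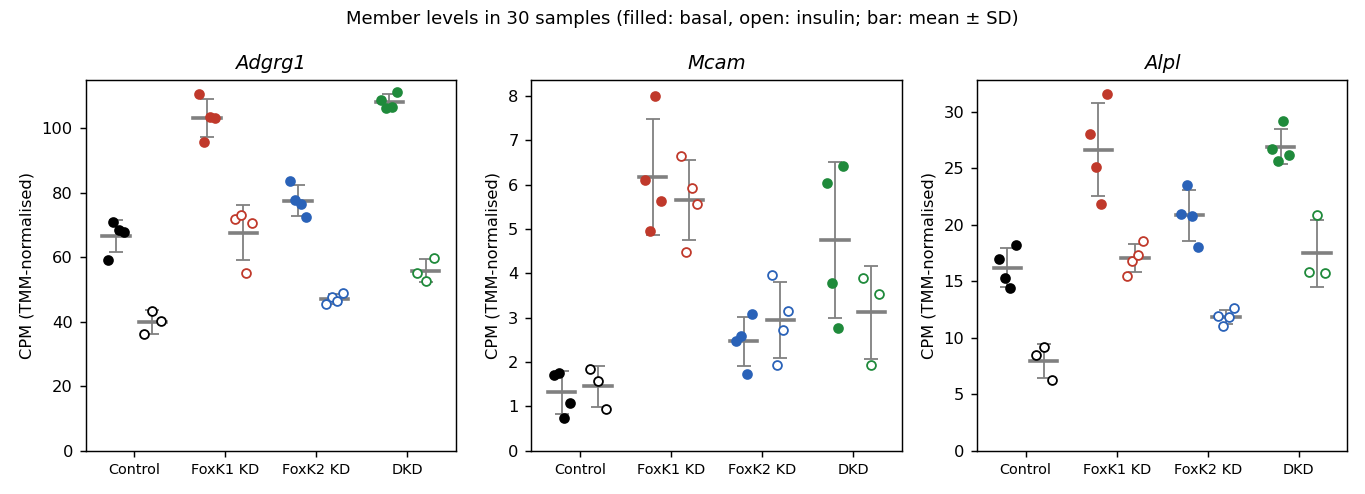
Level of Adgrg1, Mcam and Alpl in CPM (vertical axis, linear from 0) in each of the 30 samples, by genotype, with basal samples filled and insulin-treated samples open. Grey bars give mean ± SD. Adgrg1 and Alpl lie lower after insulin in every genotype, while Mcam is lowest in both Control groups, at 1.32 and 1.46 CPM on average.

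Adgrg1, the receptor, was higher after insulin stimulation in FoxK1 KD and DKD cells than in Control cells. In the Control samples it measured 36.1, 43.3 and 40.2 CPM, and in the FoxK1 KD samples 71.7, 73.2, 55.0 and 70.5 CPM. In the DKD samples it measured 55.1, 52.6 and 59.7 CPM, and in the FoxK2 KD samples 45.4, 47.6, 46.4 and 48.8 CPM. Every knockdown sample therefore lay above every Control sample, FoxK2 KD closest to Control, and the FoxK1 KD and DKD ranges overlapped through the third FoxK1 KD sample. Here and below, the share of all tested genes whose groups separate without overlap was not counted. The rise over Control was 0.77 on the log2 scale (SE 0.10, edgeR adjusted p = 6.5e-06) in FoxK1 KD and 0.49 (SE 0.11, edgeR adjusted p = 0.0101) in DKD. The FoxK2 KD difference of 0.24 (SE 0.10) was not called, with an edgeR adjusted p = 0.764.

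Mcam, the adhesion molecule, had its highest levels after insulin in FoxK1 KD cells. It entered the test only through the knockdown groups that carried it over the filter, so its p-values in all comparisons are conditioned on that and are no independent support. The Control samples held 7, 5 and 3 counts, or 1.85, 1.58 and 0.943 CPM, and the FoxK1 KD samples 18, 12, 14 and 15 counts, or 6.65, 4.48, 5.93 and 5.57 CPM. The DKD samples held 16, 5 and 16 counts, or 3.90, 1.94 and 3.54 CPM, and the FoxK2 KD samples 18, 7, 9 and 10 counts, or 3.97, 1.93, 2.73 and 3.15 CPM. FoxK1 KD stood above every other insulin-treated sample, and the lowest DKD and FoxK2 KD samples lay just over the highest Control sample. The log2 fold change over Control was 1.91 (SE 0.37, edgeR adjusted p = 0.00165) in FoxK1 KD. In DKD it was 1.13 (SE 0.41, edgeR adjusted p = 0.192), past the threshold on few counts, and this was lost on leaving out Control replicate 2 or 3 or DKD replicate 1 or 3 (edgeR adjusted p = 0.296, 0.485, 0.487 and 0.362). DESeq2 gave Mcam no adjusted p in that comparison. When every gene with at least 1 count in any sample was kept, the FoxK1 KD difference passed (edgeR adjusted p = 0.00119) and the DKD difference did not (edgeR adjusted p = 0.428). The FoxK2 KD difference of 1.001 (SE 0.40) had an edgeR adjusted p = 0.735. The 5′ end of Mcam overlaps the antisense gene Gm10687, and since the strand setting of the counting is not given in the sources used here, reads of the 2 cannot be told apart there.

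Alpl, the phosphatase, rose to a similar height in FoxK1 KD and DKD cells. It measured 8.44, 9.17 and 6.29 CPM in the Control samples after insulin and 15.5, 16.8, 17.4 and 18.6 CPM in the FoxK1 KD samples. In the DKD samples it measured 15.9, 20.9 and 15.7 CPM, and in the FoxK2 KD samples 11.9, 11, 11.8 and 12.6 CPM. The FoxK2 KD samples thus filled the gap between Control and the other knockdowns without touching either. The log2 fold change over Control was 1.09 (SE 0.18, edgeR adjusted p = 1.8e-04) in FoxK1 KD and 1.10 (SE 0.18, edgeR adjusted p = 3.7e-04) in DKD. For FoxK2 KD it was 0.56 (SE 0.18), with an edgeR adjusted p = 0.519.

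Adgrg1 and Alpl were thus called higher after insulin in FoxK1 KD and in DKD at the false discovery rate of 0.25 that the study used, whereas Mcam, kept through its high groups, passed with both filters only in FoxK1 KD. Of all tested genes, 7.59% were called higher in FoxK1 KD and 3.69% in DKD. In FoxK2 KD edgeR called 0 of the 3, and 0.167% of all tested genes were called higher. All 3 had an unadjusted edgeR p below 0.05 there, as did 685 of the 11368 tested genes in either direction. DESeq2 and limma-voom also called 0 of 3.

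**Figure D2:**
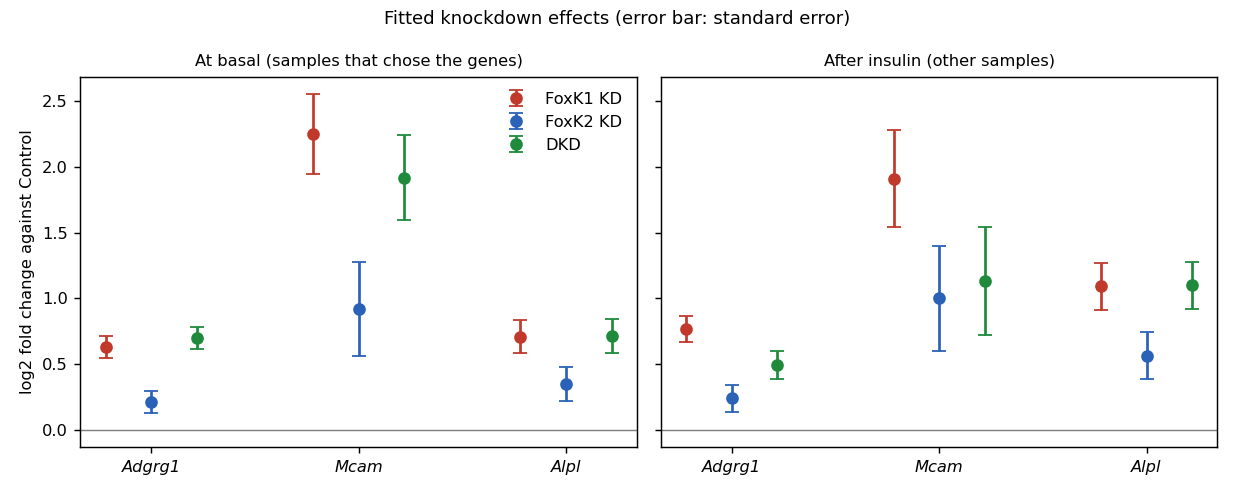
Fitted log2 fold change of each gene against Control (vertical axis) for FoxK1 KD, FoxK2 KD and DKD, at basal (left, the samples on which the genes are assumed to have been chosen) and after insulin (right). Error bars are standard errors. After insulin FoxK1 KD gives 0.77 for Adgrg1, 1.91 for Mcam and 1.09 for Alpl, and the FoxK2 KD values lie below those of FoxK1 KD in both panels.

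The knockdowns were then compared with each other after insulin. FoxK1 KD exceeded FoxK2 KD by 0.53 (SE 0.09) on the log2 scale for Adgrg1, 0.91 (SE 0.29) for Mcam and 0.53 (SE 0.15) for Alpl, with edgeR adjusted p = 3.4e-04, 0.0736 and 0.0406. The Mcam value is no independent support: among insulin-treated samples, 4 of 4 FoxK1 KD but 2 of 4 FoxK2 KD carried it over the filter's limit. Among all tested genes, 6.47% were called higher in FoxK1 KD than in FoxK2 KD. Between DKD and FoxK1 KD the difference was −0.27 (SE 0.10) for Adgrg1, −0.78 (SE 0.31) for Mcam and 0.01 (SE 0.15) for Alpl. None of these was called by edgeR (adjusted p = 0.275, 0.345 and 0.994), though the first 2 had an unadjusted p below 0.05, and DESeq2 and limma-voom called 0 of 3. In edgeR 1117 of the 11368 tested genes had an unadjusted p below 0.05, in either direction. Of all tested genes, 1.17% were called lower in DKD than in FoxK1 KD. The Adgrg1 difference lay near the threshold: without the FoxK1 KD sample at 55.0 CPM it was −0.36 (edgeR adjusted p = 0.111), and with all samples it also passed under GC and length offsets (edgeR adjusted p = 0.215) and with only the groups compared in the fit (edgeR adjusted p = 0.246). DKD against FoxK2 KD gave 0.25 (SE 0.10) for Adgrg1, 0.13 (SE 0.32) for Mcam and 0.54 (SE 0.15) for Alpl. EdgeR called 0 of 3 here as well (adjusted p = 0.678, 0.998 and 0.288), with 2 of 3 at an unadjusted p below 0.05, 0 of 3 called by DESeq2 and by limma-voom, and 0.238% of all tested genes called higher. An unadjusted edgeR p below 0.05 was found here for 654 of the 11368 tested genes, in either direction.

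The DKD effect after insulin was also set against the sum of the 2 single knockdown effects, and the fitted values lay below that sum. The departure from that sum was −0.51 (SE 0.14) for Adgrg1, −1.78 (SE 0.50) for Mcam and −0.56 (SE 0.24) for Alpl. None was called by edgeR (adjusted p = 0.639, 0.702 and 0.926), nor was any other gene: 0% of the 11368 tested genes passed, with 575 at an unadjusted p below 0.05, among them all 3. Mcam was among the tested genes only through its high groups. DESeq2 called 1 gene, none of the 3, and limma-voom called 0. Residual Foxk1 was 64.6% of Control in DKD cells, above the 58.2% left in FoxK1 KD cells, and its part in this difference was not tested.

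At basal, where the genes are assumed to have been chosen, Adgrg1 ranged from 59.3 to 70.8 CPM in Control, 95.7 to 110.4 in FoxK1 KD, 72.3 to 83.7 in FoxK2 KD and 106.2 to 111.2 in DKD. Mcam ranged from 0.744 to 1.75 CPM in Control, 4.95 to 7.998 in FoxK1 KD, 1.73 to 3.08 in FoxK2 KD and 2.78 to 6.42 in DKD. Alpl ranged from 14.4 to 18.2, 21.9 to 31.6, 18.02 to 23.5 and 25.6 to 29.2 CPM in the same groups. All FoxK1 KD and DKD samples lay above all Control samples for each gene, and FoxK2 KD overlapped Control for Mcam and Alpl. Such separation is no support where the same samples are assumed to have chosen the genes. Of all tested genes, 11.7% were called higher than Control in FoxK1 KD at basal, 1.58% in FoxK2 KD and 21.2% in DKD. The fitted log2 fold changes over Control were 0.63 (SE 0.08) in FoxK1 KD, 0.22 (SE 0.08) in FoxK2 KD and 0.70 (SE 0.08) in DKD for Adgrg1. For Mcam they were 2.25 (SE 0.30), 0.92 (SE 0.36) and 1.92 (SE 0.33), and for Alpl 0.71 (SE 0.12), 0.35 (SE 0.13) and 0.71 (SE 0.13). In basal as in insulin-treated cells the FoxK2 KD value was the smallest of the 3 knockdowns.

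Adgrg1 and Alpl were lower after insulin than at basal in every genotype, given here as a description. Mean Adgrg1 went from 66.5 ± 5.03 (SD, n = 4) to 39.9 ± 3.60 CPM (SD, n = 3) in Control and from 108.1 ± 2.35 (SD, n = 4) to 55.8 ± 3.58 CPM (SD, n = 3) in DKD. Mean Alpl went from 16.2 ± 1.72 (SD, n = 4) to 7.96 ± 1.497 CPM (SD, n = 3) in Control and from 26.9 ± 1.56 (SD, n = 4) to 17.5 ± 2.96 CPM (SD, n = 3) in DKD. No insulin-treated sample of a genotype overlapped a basal sample of the same genotype for these 2 genes. Of all tested genes, 5.95% were called lower after insulin in Control, 4.66% in FoxK1 KD, 4.33% in FoxK2 KD and 3.78% in DKD. These calls also required a fold change above 1.5. The insulin effect on the log2 scale was −0.74 (SE 0.10) in Control, −0.61 (SE 0.09) in FoxK1 KD, −0.72 (SE 0.09) in FoxK2 KD and −0.95 (SE 0.09) in DKD for Adgrg1. For Alpl it was −1.03 (SE 0.17), −0.64 (SE 0.13), −0.81 (SE 0.14) and −0.64 (SE 0.14). The DKD values come from basal and insulin-treated samples of the same set of libraries. Mcam did not share this pattern: its insulin effect was 0.20 (SE 0.45) in Control, −0.14 (SE 0.25) in FoxK1 KD, 0.28 (SE 0.31) in FoxK2 KD and −0.59 (SE 0.30) in DKD, and its basal and insulin-treated samples overlapped in every genotype.

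**Figure D3:**
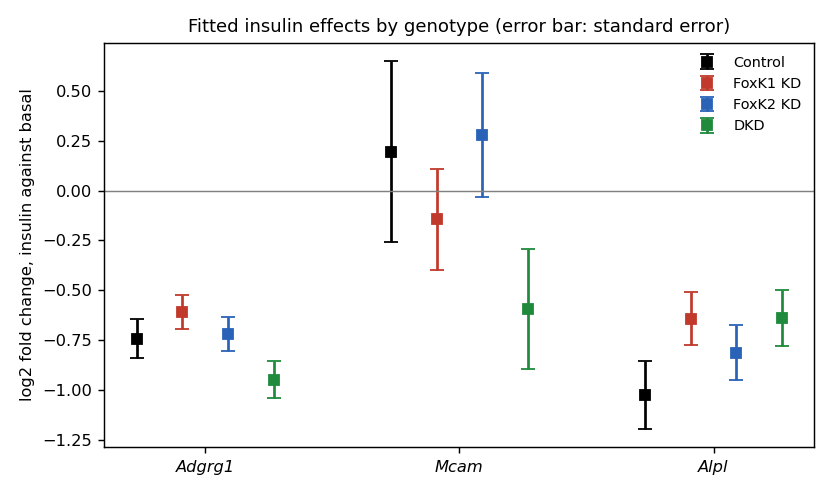
Fitted log2 fold change of insulin-treated against basal samples (vertical axis) for each gene, with 1 point per genotype; error bars are standard errors. All Adgrg1 and Alpl values lie below 0, between −0.61 and −1.03, whereas the Mcam values lie on both sides of 0.

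Ordered by mean level, Adgrg1 ran from 108.1 CPM in DKD basal through 103.1 in FoxK1 KD basal, 77.5 in FoxK2 KD basal, 67.6 in FoxK1 KD insulin, 66.5 in Control basal, 55.8 in DKD insulin and 47.1 in FoxK2 KD insulin to 39.9 in Control insulin. Neighbours overlapped except FoxK1 KD basal over FoxK2 KD basal and the last 3 groups from each other. Insulin-treated FoxK1 KD cells thus held about the Adgrg1 level of basal Control cells. Alpl ran from 26.9 CPM in DKD basal through 26.7 in FoxK1 KD basal, 20.8 in FoxK2 KD basal, 17.5 in DKD insulin, 17.1 in FoxK1 KD insulin, 16.2 in Control basal and 11.8 in FoxK2 KD insulin to 7.96 in Control insulin, and of all neighbours only the last 3 groups did not overlap each other. Mcam ran from 6.17 CPM in FoxK1 KD basal through 5.66 in FoxK1 KD insulin, 4.75 in DKD basal, 3.13 in DKD insulin, 2.94 in FoxK2 KD insulin and 2.47 in FoxK2 KD basal to 1.46 in Control insulin and 1.32 in Control basal, and each group overlapped the next.

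Over the 30 samples, which share their 8 groups, log2-CPM of Adgrg1 and Alpl had a Pearson correlation of 0.91. Adgrg1 with Mcam and Mcam with Alpl gave 0.53 each. Among the 14 insulin-treated samples alone the values were 0.79 for Adgrg1 with Alpl, 0.79 for Adgrg1 with Mcam and 0.73 for Mcam with Alpl. Once the group means were removed, over all 30 samples, they were −0.06, −0.03 and −0.13, so the shared pattern seen was between groups. Sharing between samples of a group was not seen, but groups of 3 or 4 samples, with Mcam at 3 to 34 counts, cannot exclude it.

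The genes most like each of the 3 were sought by the same correlation over 30 samples. For Adgrg1 they were Lbp, the lipopolysaccharide binding protein (0.94), Fhod3, a formin (0.92), Csf1r, the receptor of a macrophage growth factor (0.92), Plk2, a polo-like kinase (0.91), and Tns1, a focal adhesion protein (0.91). For Alpl they were Lbp (0.95), Fhod3 (0.93), Me3, a mitochondrial malic enzyme (0.90), Abhd4, a lipase (0.89), and Csf1r (0.88), so 3 of 5 were on both lists. For Mcam they were Atp1b1, a sodium pump subunit (0.86), Siglecg, a sialic acid binding lectin (0.82), Notch3, a Notch receptor (0.82), Rab11fip5, a vesicle traffic protein (0.80), and Thbs1, a matrix glycoprotein (0.79), none of them on the other lists. Over the 8 group means the same correlations lay between 0.86 and 0.99. Lbp, the most abundant, averaged 503.6 CPM in Control basal, 729.9 in DKD basal, 321.3 in Control insulin and 496.7 in DKD insulin, and Siglecg averaged 1.25 CPM in Control basal and 6.01 in FoxK1 KD basal.

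**Figure D4:**
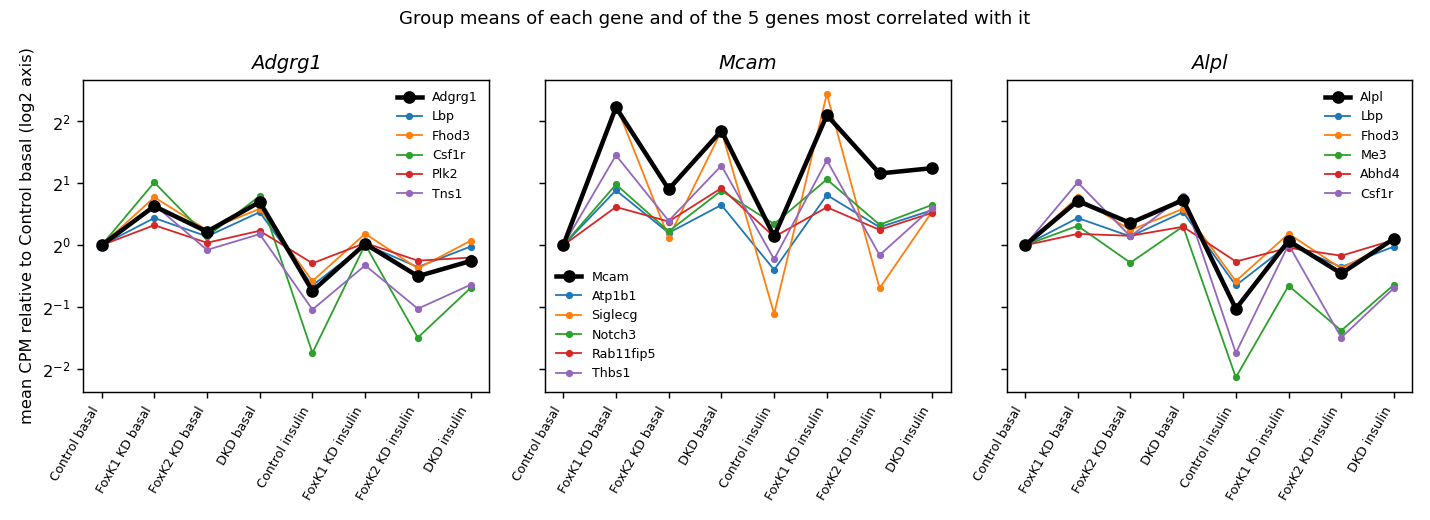
Mean CPM in each of the 8 groups relative to Control basal (vertical axis, log2) for Adgrg1, Mcam and Alpl (black) and for the 5 genes most correlated with each. Adgrg1 and Alpl and their 5 nearest genes drop in Control after insulin and are higher in FoxK1 KD, while Mcam and its nearest genes are higher in FoxK1 KD basal than in Control basal.

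The matrix and cell partners of the 3 genes were present in part. Collagen III (Col3a1), a ligand of Adgrg1, had 2 counts in all 30 samples, whereas transglutaminase 2 (Tgm2), another, lay between 363.7 and 475.7 CPM in the 8 group means. Of the Mcam ligands, laminin α4 (Lama4) stayed below 2 CPM in every group mean and was not tested, and galectin 3 (Lgals3) lay between 75.1 and 103.9 CPM. For the pyrophosphate and vitamin B6 substrates of Alpl, group means were 43.6 to 56.5 CPM for Enpp1, which makes pyrophosphate, 89.2 to 118.9 for Ank, which exports its source, and 95.9 to 119.6 for the kinase Pdxk. In bulk RNA, fewer cells that express a gene and less RNA per cell cannot be told apart. Defining markers of the cells best known for Mcam were near 0: the 4 endothelial markers summed to at most 0.55 CPM and the 6 mural and stellate markers to at most 1.45 CPM in any sample, with Pdgfrb and Lrat at 0. The bone genes Sp7 and Ibsp were also at 0, but Runx2, a bone and cartilage factor, averaged 63.3 CPM.

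The wider pathways were followed in 8 lists of 115 genes, of which 114 were in the files and 78 were tested. In DKD after insulin, 5 of the 78 rose and 0 fell, or 6.41% and 0%, against 3.69% and 2.97% of all tested genes. The 5 were Cd81, a tetraspanin partner of Adgrg1 (log2 fold change 0.29, edgeR adjusted p = 0.193), Bcam, a laminin receptor of the immunoglobulin family (0.69, 0.065), Entpd2, a surface nucleotidase (0.35, 0.0802), and the GPI anchor genes Pigc (0.38, 0.179) and Pigyl (0.53, 0.232). At an unadjusted edgeR p below 0.05, 10 of the 78 were higher and 2 lower, beside 1449 of the 11368 tested genes in either direction. DESeq2 and limma-voom called 1 and 0 lower. In FoxK1 KD, 11 rose and 4 fell, or 14.1% and 5.13%, against 7.59% and 7.51% of all tested genes. Bcam (0.86) and Entpd2 (0.26) rose here too. In FoxK2 KD edgeR called 0 in either direction, with 5 higher and 2 lower at an unadjusted p below 0.05 and 0 called by DESeq2 and by limma-voom. Of the 11368 tested genes, 685 had an unadjusted edgeR p below 0.05 there, in either direction.

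By list, of 9 other adhesion GPCRs tested, 0 were called in DKD and 2 rose in FoxK1 KD, Adgrb2 (1.91) and Celsr2 (0.77). The 15 other immunoglobulin-family adhesion molecules had 1 rise in DKD and 3 rises and 1 fall in FoxK1 KD, the fall being Vcam1 (−0.63). The 7 tested Mcam ligands and partners had 0 calls in DKD and 1 fall in FoxK1 KD, the laminin gene Lamc1 (−0.21). Among 4 tested genes of pyrophosphate and phosphate handling, 0 were called in DKD and Ank (0.31) rose in FoxK1 KD. Of 26 GPI anchor genes, 2 rose in DKD, and 2 rose and 1 fell in FoxK1 KD. The median log2 fold change in DKD of the 7 lists described lay between −0.08 and 0.17, beside 0.01 over all tested genes. The genes named for FoxK1 KD in this account of the lists were chosen after their values were seen.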

How the data were processed

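Total RNA of 30 AML12 samples was sequenced by the authors. Per the labels and the submitters' processing notes, reads were processed with CASAVA 1.8, STAR 2.4.2a and featureCounts on GRCm38.p4, and the authors deposited raw counts per Ensembl gene, not normalized. The annotation and strand setting are not given in the sources used here. Samples were grouped from their labels. Symbols and coordinates came from GENCODE M21 (GRCm38).

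EdgeR 4.0.16 was run in R 4.3.3: filterByExpr left 11368 genes, counts were TMM-normalized and 1 quasi-likelihood model of 8 groups was fitted, with Benjamini-Hochberg adjustment over all genes and calls at a false discovery rate below 0.25, as in the study. SE was obtained from each log2 fold change and its F statistic, as |log2 change|/√F. For the 3 genes, 7 contrasts among insulin-treated samples, 21 tests in all, were made. The method was tested on simulated data. Samples within a group were checked for copies, and over 42 pairs the lowest chi-square/df was 1.71.

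The members and lists were chosen with earlier results of these data known. Genes named were the 3 members, Foxk1 and Foxk2, 5 genes per member with the highest Pearson correlation of log2-CPM (prior count 2) over 30 samples, leaving out genes whose mean log2-CPM was below 1, the called list genes with the 2 largest changes per direction in DKD after insulin, and ligand genes by level. Alternatives were DESeq2 1.42.0, limma-voom (limma 3.58.1), other filters, scaling factors, offsets for GC content and length, thresholds, a replicate block, fewer samples and leaving out 1 sample. The result of 1 of the 8 gene lists by itself is not reported here.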

Additional observations from a re-analysis of the deposited data

Results flagged for a closer look

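Adgrg1 in insulin-treated FoxK1 KD cells had 1 sample far below the others, at 55.04 CPM beside 70.5, 71.7 and 73.2 CPM. It was picked out by Dixon's test at the 95% level, which chance meets in about 1 in 20 groups of 4. Without that sample the rise over Control was 0.85 in place of 0.77 on the log2 scale.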

How the results depend on the processing

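Of 409 repeats of the 21 tests under other settings, 394 kept their side of the threshold, 10 lost the call and 5 gained one. In 0 was a call reversed in direction. Uncalled differences near 0 could change sign. Mcam in DKD against FoxK2 KD ranged from −0.04 to 0.34, and Alpl in DKD against FoxK1 KD from −0.11 to 0.08. Values are log2 fold changes after insulin unless basal is named, and the causes of the changes were not tested. A fold change above 1.5 as a second condition, by its construction, removed Adgrg1 in DKD against Control (0.49) and Adgrg1 and Alpl in FoxK1 KD against FoxK2 KD (0.53 and 0.53). A false discovery rate of 0.05 removed Mcam in DKD against Control (1.13) and in FoxK1 KD against FoxK2 KD (0.91). Fitting only the 14 insulin-treated samples kept the calls of Adgrg1 against Control. They were 0.77 in FoxK1 KD (edgeR adjusted p = 1.6e-04) and 0.50 in DKD (edgeR adjusted p = 0.0260). For Mcam in DKD against Control, keeping genes with 1 count in any sample gave 1.12 (edgeR adjusted p = 0.428) and leaving out 1 sample gave 0.90 to 1.35. For Adgrg1 in DKD against FoxK1 KD, GC and length offsets gave −0.28 (edgeR adjusted p = 0.215), fitting only the groups compared −0.28 (0.246), and leaving out 1 sample −0.36 to −0.24, where of these fits only that without FoxK1 KD replicate 3 passed. Fitting only the groups compared also gave a call for Mcam there (−0.78, edgeR adjusted p = 0.237).

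GC and length offsets moved 5 of the 21 descriptions, with and without a replicate block alike: at basal, DKD against Control became 0.52 and 0.52 for Adgrg1 and 0.54 and 0.54 for Alpl, and the insulin effect became −0.79 and −0.79 in FoxK1 KD and −0.85 and −0.85 in FoxK2 KD for Adgrg1, and −0.85 and −0.85 in FoxK1 KD for Alpl. The 3 genes have a GC content of 53.7% to 56.5%, and the median of tested genes is 49.3%. With both offsets and block, Alpl in DKD against FoxK2 KD was called (0.54, edgeR adjusted p = 0.225). The replicate block alone changed no call of the 21, with Adgrg1, Mcam and Alpl in DKD against Control at 0.50, 1.12 and 1.11, and moved the count of genes called there from 757 to 680. Samples share only a number: deviations from the group means correlated by −0.013 on average over 99 pairs with the same number and by 0.0043 over 294 others, and 8 of the 99 exceeded 0.1.

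Genes called in DKD against Control after insulin numbered 352 with only those groups fitted, 422 with the 1-count filter, and 320 to 890 without 1 sample (320 without Control replicate 3, 373 and 404 without DKD replicate 1 and 2). List genes called higher there fell from 5 to 0 at a false discovery rate of 0.05, and DESeq2 called 1 lower in place of 0. In FoxK1 KD they went from 11 to 3 higher and 4 to 1 lower at 0.05. A minimum of 10 counts in every sample left no value for Mcam, whose 3 to 7 counts in the insulin-treated Control samples limit its precision. Fitting only the groups compared also left no value for Mcam in DKD against Control after insulin.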
